A study of Mus musculus with 2 samples.

Results

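The 34 genes described here make the proteins that license, fire and carry out DNA replication and supply its nucleotides, and they were taken from a list of named genes out of the 32285 genes of each count table. All 34 were found in all 4 deposited libraries. The study describes their source as splenocytes of C57BL/6 mice with the wild type *Ptpn22* allele (PEP-WT) or with the pro autoimmune allele (PEP-619WW). That allele places tryptophan at residue 619 of the phosphatase PEP and was introduced with CRISPR/Cas9. Both genotypes had been given LCMV-cl13, the clone of lymphocytic choriomeningitis virus known for chronic infection, and spleens were taken 8 days later from age and sex matched mice of 6 to 12 weeks. Cells of 4 to 5 mice per genotype were pooled and live CD45+ cells were sorted, so that a library holds a pool and no animal can be told from another. Uninfected mice were not analysed here. Part of the labels name liver, a human T cell line and tumor infiltrating cells, whereas the protocol text and the study describe splenocytes.

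Each genotype had 2 deposited count tables, named run 1 and run 2 in what follows, whose relation to each other was not stated. In run 1 there were 14821 barcodes for PEP-WT and 8576 for PEP-619WW, with 77916082 and 56745578 unique molecular identifiers (UMIs), each of which stands for 1 captured transcript. Run 2 held 9539 and 11029 barcodes with 70500076 and 55504449 UMIs. Any pair of libraries shared 19 to 49 barcode sequences. Run 2 stood apart from run 1. Its PEP-WT library had 28 CD8 T, 12 CD4 T and 2 B barcodes and 0 plasma and 0 erythroid barcodes, and markers of melanocytes took 276 counts per 1000000 UMIs (CPM) there and 15.6 in the PEP-619WW library, against 0.59 and 0.72 in run 1. The runs were therefore kept apart throughout and were not taken as replicates. Whether run 2 holds splenocytes, as the study describes, or cells of another tissue named in the labels was not tested. With 1 library per genotype in a run there was no replicate error and no test, and every interval below is a 95% interval for counting error only. The intervals of levels and ratios take each UMI as independent. UMIs of a cell share its barcode, so these intervals do not cover which cells were captured.

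A cell copies its genome once per division. In G1 phase, Cdc6 and Cdt1 load the ring of Mcm2 to Mcm7 onto origins, and in S phase Cdc45 and the GINS complex turn that ring into the active helicase, behind which polymerases, the clamp Pcna, the flap nuclease Fen1 and the ligase Lig1 make and join new DNA. The transcription factor E2F1 and cyclin E drive entry into S phase, and many replication genes carry E2F sites. In the spleen of an infected mouse, activated T cells, germinal center B cells, plasmablasts, erythroid precursors and myeloid progenitors are the cells known to divide, whereas mature neutrophils do not.

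E2F sites were looked for in RefSeq promoter windows (GRCm38.p6) of 250 bases before to 50 bases after a start. The letters searched were TTTCCCGC, TTTCGCGC, TTTGCCGC and TTTGGCGC on both strands, where matches on opposite strands can overlap. Windows were found for 29 of the 34 members, and 12 of their 34 windows (35.3%) held a match, against 744 of all 32851 windows (2.26%). The members with a match were *Cdc6*, *Cdt1*, *Clspn*, *Lig1*, *Mcm3*, *Mcm5*, *Mcm6*, *Mcm7*, *Pclaf*, *Pola1*, *Pold1* and *Uhrf1*. No window was found for *Ccne2*, *Gins1*, *Gins2*, *Mcm4* and *Pole*. The 250 bases before the start are shown for 2 subunits of the helicase ring and for the catalytic subunit of polymerase alpha, which hold matches. They are also shown for thymidylate synthase *Tyms*, which holds none. Low ratios are given below for *Tyms* and also for *Pola1*, the polymerase alpha gene. The windows shown were chosen after the matches were seen, among windows that overlap no annotated exon. They run 5′ to 3′ along the gene's strand, with the matched letters in capitals. *Mcm5* lies at chr8:75109259-75109508 (+ strand), *Mcm6* at chr1:128359706-128359955 (- strand), *Pola1* at chrX:93632156-93632405 (- strand) and *Tyms* at chr5:30073626-30073875 (- strand).
Mcm5: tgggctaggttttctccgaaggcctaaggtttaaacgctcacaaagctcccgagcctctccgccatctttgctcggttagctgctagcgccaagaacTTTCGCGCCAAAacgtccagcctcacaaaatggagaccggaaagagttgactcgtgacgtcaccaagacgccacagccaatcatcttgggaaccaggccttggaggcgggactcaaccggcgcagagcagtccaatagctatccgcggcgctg
Mcm6: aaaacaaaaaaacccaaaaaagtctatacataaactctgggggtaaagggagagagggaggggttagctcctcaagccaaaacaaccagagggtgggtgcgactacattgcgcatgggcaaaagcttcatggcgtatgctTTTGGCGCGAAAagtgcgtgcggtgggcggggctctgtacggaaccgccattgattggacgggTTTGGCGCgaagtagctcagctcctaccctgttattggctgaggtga
Pola1: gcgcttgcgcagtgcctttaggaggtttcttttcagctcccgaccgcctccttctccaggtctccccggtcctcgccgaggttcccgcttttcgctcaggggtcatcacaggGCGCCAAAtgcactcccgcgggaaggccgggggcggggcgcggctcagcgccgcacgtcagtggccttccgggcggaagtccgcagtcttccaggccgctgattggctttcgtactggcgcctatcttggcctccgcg
Tyms: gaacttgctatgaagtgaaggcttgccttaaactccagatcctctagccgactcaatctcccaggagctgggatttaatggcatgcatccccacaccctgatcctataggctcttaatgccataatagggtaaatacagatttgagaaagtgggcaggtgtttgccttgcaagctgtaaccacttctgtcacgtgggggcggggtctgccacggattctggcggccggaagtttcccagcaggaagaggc
The 2 matches of *Mcm5* overlapped on opposite strands, as did 2 of the 3 matches of *Mcm6*. A match describes letters in the window and not a bound factor, and the absence of a match in *Tyms* says only that these letters are not there. Whether matches go with the ratios below was not tested.

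Barcodes were assigned to cell classes by gates on a few genes: CD8 T (*Cd3e* and *Cd8b1*), CD4 T (*Cd3e* and *Cd4*) and B (*Cd79a* and *Ms4a1*) with at least 1 UMI of each gene, plasma (at least 5 UMIs of *Mzb1*), erythroid (at least 2 UMIs of *Car1* plus *Ermap*) and Lyz2 (at least 5 UMIs of *Lyz2*, a gene of macrophages, monocytes and neutrophils). The gates overlapped. In run 1, 25.2% (PEP-WT B gate) to 67.6% (PEP-WT plasma gate) of a gate's barcodes were in another gate too. Each run 1 gate held UMIs of all markers of its own class. Markers of other classes were present as well: the 7 plasma markers summed to 3100 and 4619 CPM in the PEP-WT and PEP-619WW CD8 T gates, beside 4540 and 4255 for the 9 T cell markers. How much doublets and free RNA contributed to the values below was not tested, and values without the barcodes of 2 or more gates are given where they differ.

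The 34 members together were most abundant in the erythroid gate of run 1, with 4686 CPM in PEP-WT (4628 to 4745) and 4492 in PEP-619WW (4418 to 4567). In PEP-WT the CD8 T gate (2642) and the CD4 T gate (2409) came next, followed by the plasma (1956), B (1682) and Lyz2 (1615) gates. The intervals of these 6 PEP-WT sums did not overlap. In PEP-619WW the order was erythroid, CD8 T (2365), CD4 T (1809), plasma (1701), B (1579) and Lyz2 (1255). Mature neutrophil barcodes, with at least 2 UMIs of *Retnlg* and 1 of *Cxcr2*, served as a comparison class. They were not taken out of the gates, so this class and a gate, such as the Lyz2 gate of either run, can share barcodes. Mature neutrophils are known not to divide, but the barcodes of the class held 1301 member CPM in PEP-WT and 705 in PEP-619WW. They also held markers of progenitors (485 and 32.3 CPM). The source of these member UMIs was not tested, and the barcodes are not taken as a floor without replicating cells.

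By single member, 32 of 34 had their highest level in the erythroid gate in each genotype. The exceptions were the clamp-associated factor *Pclaf* and the single-strand binding subunit *Rpa2* in PEP-WT, both highest in the CD8 T gate, and *Rpa2* (CD8 T gate) and the polymerase delta subunit *Pold1* (B gate) in PEP-619WW. *Pclaf* had 298 CPM in the PEP-WT CD8 T gate and 245 in the PEP-WT erythroid gate. *Rpa2* had 99.0 (93.8 to 104) and 94.6 (86.5 to 103) in the same PEP-WT gates, and 104 and 77.2 in those of PEP-619WW. *Pold1* had 28.2 in the PEP-619WW B gate (26.0 to 30.5) and 27.2 in the erythroid gate (21.7 to 33.7). The intervals of *Rpa2* in PEP-WT and of *Pold1* in PEP-619WW thus overlapped between the gates. *Dut*, the dUTPase that keeps uracil out of DNA, had 813 in the PEP-WT erythroid gate and 410 in the CD8 T gate. *Pclaf* took 5.24% of the member UMIs of the PEP-WT erythroid gate (4.96% to 5.52%) and 13.6% of those of the PEP-WT plasma gate (13.3% to 13.9%), so the mix of members differed between classes as well as their sum.

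**Figure D1:**
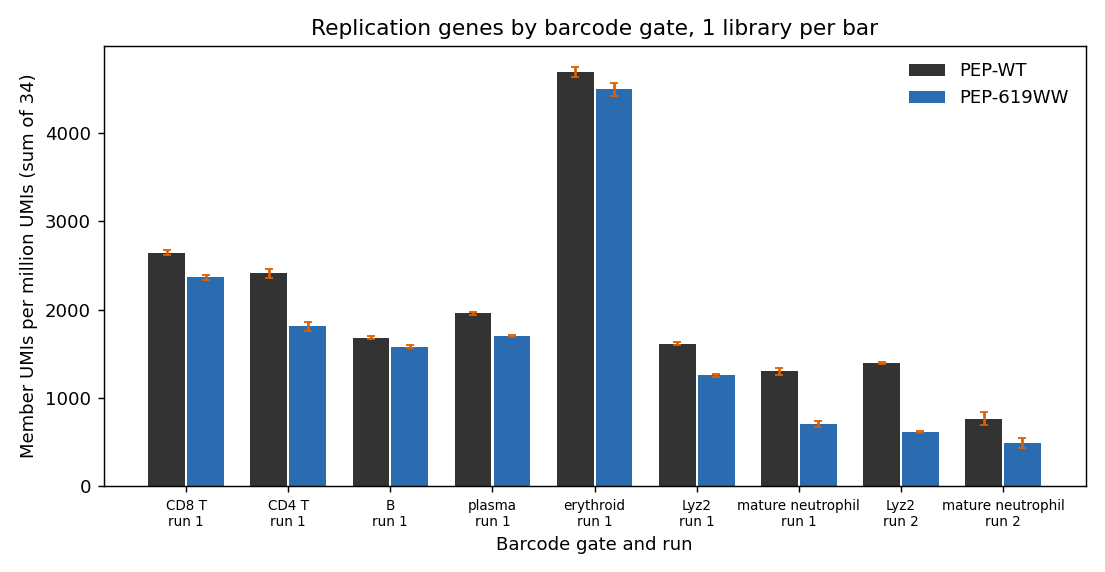
Summed CPM of the 34 members (y axis, linear from 0) in each barcode gate and run (x axis), with PEP-WT in black and PEP-619WW in blue and 95% Poisson intervals as orange bars. The erythroid gates stand highest at 4686 and 4492, and the widest gap of a gate between genotypes is in the Lyz2 gate of run 2, at 1394 against 617.

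The share of barcodes with UMIs of 3 or more members was then compared at 1 depth, each barcode being thinned to 2000 UMIs and shallower barcodes left out. In run 1 the PEP-WT shares were 88.7% (erythroid), 40.5% (CD8 T), 32.1% (CD4 T), 30.4% (plasma), 20.9% (Lyz2) and 17.3% (B). The PEP-619WW shares were 86.9%, 41.2%, 29.1%, 32.0%, 19.3% and 19.4% in the same gates. Mature neutrophil barcodes, at median depths of 3148 and 3964 UMIs, had shares of 11.9% (8.81% to 15.5%) in PEP-WT and 6.49% (4.25% to 9.44%) in PEP-619WW. The shares of all 6 gates lay above that of the neutrophil barcodes in the same library. Of the 46 PEP-WT and 25 PEP-619WW neutrophil barcodes with 3 or more members, 23 and 14 also had 3 or more mitosis genes.

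The shares were then compared between genotypes in run 1. The difference, PEP-619WW minus PEP-WT, was 0.74 points in the CD8 T gate (-3.33 to 4.84), -3.07 in the CD4 T gate (-10.4 to 4.45), 1.65 in the plasma gate (-1.23 to 4.56), -1.88 in the erythroid gate (-9.22 to 4.26) and -1.58 in the Lyz2 gate (-4.72 to 1.63). These 5 intervals included 0. The B gate differed by 2.15 points (0.39 to 3.94), and by -0.77 points (-1.98 to 0.50) when 5 or more members were asked for. Apart from the values without thinning, given below, other settings moved 3 of the other differences. The Lyz2 gate had -6.04 points (-10.2 to -1.79) at 4000 UMIs. The plasma gate had 5.07 (0.63 to 9.52) without barcodes of 2 or more gates and -3.19 (-6.73 to 0.37) with stricter gates, and the erythroid gate had 4.98 without barcodes of 2 or more gates. Without thinning, the share was higher in PEP-619WW by 13.1 points in the CD8 T gate, 13.4 in the CD4 T gate, 12.2 in the B gate, 7.16 in the plasma gate, 4.92 in the erythroid gate and 2.63 in the Lyz2 gate. By the median, PEP-619WW barcodes held more UMIs in the CD8 T (8660, against 6038 in PEP-WT) and CD4 T gates (6963 against 4935). The same held in the B (3496 against 2837) and plasma gates (11400 against 9899). The Lyz2 medians lay close together (6374.5 and 6282.5). In the erythroid gate the PEP-619WW median was the lower one (7749.5 against 8444), although the unthinned share there was higher in PEP-619WW.

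The spread of member UMIs over barcodes differed between gates. At 2000 UMIs, 15.5% of the PEP-WT barcodes in the CD8 T gate, and 12.4% of the PEP-619WW ones, held 10 or more member UMIs, and 18.7% and 17.7% held 0 member UMIs. In the erythroid gate 49.2% and 48.2% held 10 or more and 3.54% and 2.19% held 0. The top 10% of barcodes held 37.9% and 38.3% of all member UMIs in the CD8 T gate, 52.5% and 46.9% in the B gate and 22.0% and 22.1% in the erythroid gate. Among barcodes with 3 or more members, the mean number of member UMIs was 8.68 in PEP-WT and 7.91 in PEP-619WW in the CD8 T gate. It was 7.92 and 6.43 in the CD4 T gate, 7.19 and 6.24 in the B gate, 8.11 and 6.99 in the plasma gate and 7.003 and 5.82 in the Lyz2 gate. In the erythroid gate it was 10.9 and 10.5. The PEP-619WW mean was thus the lower one in each gate of run 1.

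**Figure D2:**
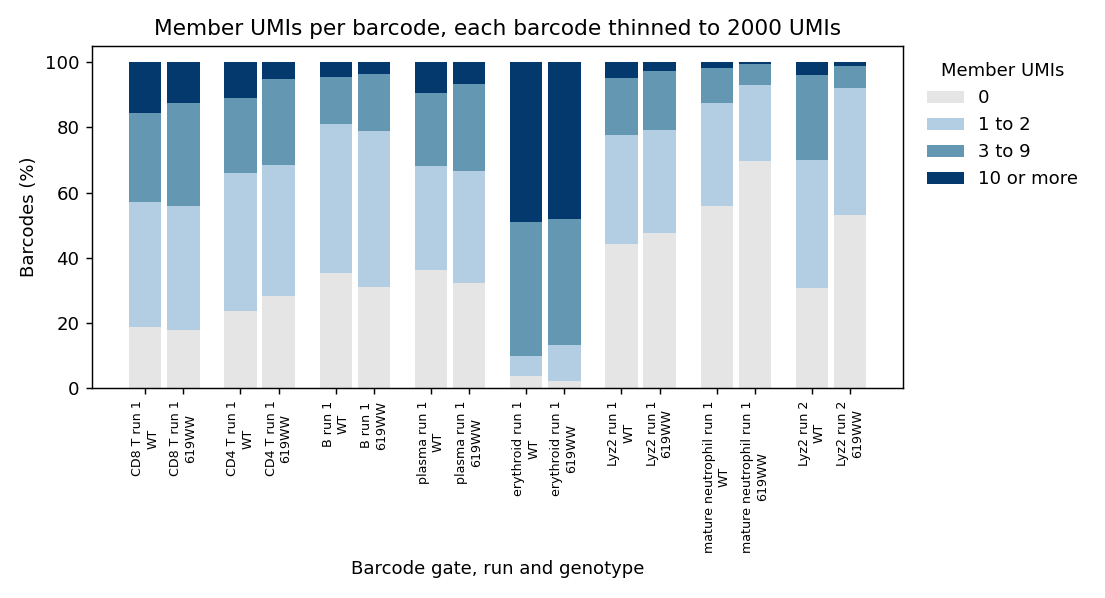
Share of barcodes (y axis, %) with 0, 1 to 2, 3 to 9 and 10 or more member UMIs after thinning each barcode to 2000 UMIs, by gate, run and genotype (x axis, WT for PEP-WT and 619WW for PEP-619WW). The erythroid bars hold 49.2% and 48.2% of barcodes with 10 or more member UMIs, and the mature neutrophil bars 1.80% and 0.52%.

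Summed over all UMIs of a gate, the members had a lower CPM in PEP-619WW in all 6 gates of run 1. The log2 ratio, PEP-619WW over PEP-WT, was -0.16 in the CD8 T gate (-0.18 to -0.14), -0.41 in the CD4 T gate (-0.46 to -0.36), -0.09 in the B gate (-0.11 to -0.07), -0.20 in the plasma gate (-0.22 to -0.18), -0.06 in the erythroid gate (-0.09 to -0.03) and -0.36 in the Lyz2 gate (-0.39 to -0.34). As a mean over barcodes, which gives each barcode the same weight, the ratio was nearer to 0 in 5 gates, at -0.039 (CD8 T), -0.24 (CD4 T), -0.062 (plasma), -0.0026 (erythroid) and -0.13 (Lyz2), and it turned to 0.13 in the B gate. In a sum over barcodes, fewer replicating cells and less RNA per cell cannot be told apart. The markers of erythroid cells, the class with the highest member CPM, were lower in PEP-619WW in each of these gates too. They summed to 284 CPM in PEP-WT and 83.0 in PEP-619WW in the CD8 T gate, 277 and 86.3 in the CD4 T gate, 581 and 105 in the B gate, 284 and 122 in the plasma gate and 365 and 237 in the Lyz2 gate, and to 2287 and 446 over the whole libraries. Their part in the ratios was not tested. Mature neutrophil barcodes of the same libraries had a log2 ratio of -0.88 (-0.96 to -0.81), further from 0 than any of the 6 gates, with 26 of 33 members lower (23.2% of all genes) and 0 higher (6.45% of all genes), and the part of such UMIs in the ratios was not tested. In these neutrophil barcodes the T cell markers summed to 814 and 388 CPM and the neutrophil markers to 45291 and 82529, beside the progenitor markers given above. Without barcodes of 2 or more gates, the ratio was -0.58 in the CD4 T gate (-0.67 to -0.50) and -0.30 in the Lyz2 gate (-0.35 to -0.25). It was -0.03 in the CD8 T gate (-0.06 to 0.01) and -0.01 in the plasma gate (-0.05 to 0.03), and it turned to 0.03 in the B gate (-0.02 to 0.07) and 0.11 in the erythroid gate (0.07 to 0.15).

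Single members were called where their level differed at least 1.5-fold with 30 or more UMIs over both libraries, a limit that all 34 passed in the 6 gates of run 1 and in the Lyz2 gate of run 2. In the mature neutrophil barcodes of run 1, 33 passed it and *Gins1* did not. In the CD8 T gate 1 of 34 members was called lower in PEP-619WW and 0 higher, where 5.90% of all 11609 genes tested were lower and 5.07% higher. That member was *Tyms*, which makes the thymidylate for DNA, at 91.5 CPM in PEP-WT (86.5 to 96.6) and 60.6 in PEP-619WW (56.3 to 65.0). Its log2 ratio was -0.59 (-0.73 to -0.46). The next lowest were the polymerase alpha subunit *Pola1* (30.1 and 22.5, log2 -0.42) and *Pclaf* (298 and 226, log2 -0.40). The highest ratios were those of the licensing factor *Cdt1* (35.2 and 42.2, log2 0.26), *E2f1* (16.8 and 19.5, log2 0.22) and the GINS subunit *Gins1* (10.6 and 11.9, log2 0.16), of which the interval of *Cdt1* alone excluded 0. *Dut* was at 410 and 325 (log2 -0.34) and *Rrm2*, the small subunit of ribonucleotide reductase, at 112 and 97.5 (log2 -0.20). *Pcna* was at 222 and 230 and *Mcm6* at 129 and 131, and the intervals of both ratios included 0. The median ratio of the members was -0.10, beside -0.00 for all genes. The neutrophil markers summed to 1084 and 702 CPM in this gate and the progenitor markers to 107 and 189, and their part was not tested. *Tyms* was no longer called without the barcodes of 2 or more gates (log2 -0.47) or with the reduced total described for the Lyz2 gate (log2 -0.56).

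In the CD4 T gate 7 of 34 members (7.58% of all genes) were called lower and 0 (7.80% of all genes) higher. They were *Pclaf*, the GINS subunits *Gins2* and *Gins1*, the helicase activator *Cdc45*, *Rrm2*, *Tyms* and *Dut*, and the interval of *Gins1* (log2 -0.59, -1.39 to 0.18) included 0. *Pclaf* had 282 CPM in PEP-WT (264 to 301) and 158 in PEP-619WW (144 to 174), a log2 ratio of -0.83 (-1.0003 to -0.67). *Gins2* was at 32.4 and 19.0 (log2 -0.77) and *Cdc45* at 19.96 and 11.8 (log2 -0.76). *Dut* was at 396 and 259 (log2 -0.61) and *Rrm2* at 94.3 and 56.2 (log2 -0.75). *Pcna* (205 and 174, log2 -0.23) and *Mcm6* (124 and 117, log2 -0.09) differed less. The highest ratios were *Cdt1* (28.4 and 32.9, log2 0.21), *Cdc6* (12.7 and 13.3, log2 0.06) and *Rpa2* (68.3 and 66.6, log2 -0.04), with intervals that included 0. The members' median was -0.37, beside 0.01 for all genes. Only 361 and 261 barcodes were in this gate. The number of members called lower was 17 of 31 tested without barcodes of 2 or more gates (9.51% of all genes), 16 of 31 with stricter gates (9.09% of all genes) and 0 of 34 at 2-fold (1.87% of all genes). The progenitor markers, at 398 and 18.6 CPM, and the B cell markers, at 682 and 334, also differed between the libraries in this gate, and their part was not tested.

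In the B gate 0 of 34 members were called in either direction, where 4.78% of all genes were lower and 6.60% higher, and the median was -0.04, beside 0.02 for all genes. The lowest ratios were the chromatin assembly subunit *Chaf1b* (13.0 and 9.20 CPM, log2 -0.50), *Tyms* (47.3 and 34.1, log2 -0.47) and *Pola1* (22.0 and 16.5, log2 -0.41). The highest were *Cdt1* (29.5 and 36.7, log2 0.31, 0.18 to 0.45), *E2f1* (11.8 and 13.8, log2 0.22) and *Gins1* (7.65 and 8.69, log2 0.18). *Dut* (225 and 177, log2 -0.35) and *Pclaf* (203 and 174, log2 -0.22) were lower and *Rrm2* (73.6 and 80.4, log2 0.13) was higher, with intervals that excluded 0. *Pcna* (144 and 149) and *Mcm6* (75.2 and 75.8) had intervals that included 0. The plasma markers summed to 4043 and 6230 CPM in the B gate and the neutrophil markers to 708 and 1496, and their part in these ratios and in the share difference of this gate was not tested.

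In the plasma gate 0 of 34 members were called, where 5.15% of all genes were lower and 5.59% higher, and the median was -0.14, beside -0.00 for all genes. *Pold1* had the lowest ratio (22.2 and 14.9 CPM, log2 -0.57), followed by *Tyms* (61.8 and 43.9, log2 -0.49) and *Pclaf* (266 and 192, log2 -0.47). *Cdt1* (26.6 and 33.9, log2 0.35), the cyclin E gene *Ccne1* (30.2 and 34.7, log2 0.20) and *E2f1* (13.8 and 14.8, log2 0.11) had the highest. *Dut* was at 259 and 190 (log2 -0.45), and *Pcna* (157 and 157), *Mcm6* (84.0 and 84.0) and *Rrm2* (122 and 117) were closer. The progenitor markers summed to 23.5 and 98.9 CPM in this gate, the neutrophil markers to 499 and 926 and the B cell markers to 2110.5 and 1527, and their part was not tested.

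In the erythroid gate 0 of 34 members were called, where 6.81% of all genes were lower and 6.14% higher, and the median was -0.08, beside -0.01 for all genes. *Cdc45* (41.3 and 28.2 CPM, log2 -0.55), *Pold1* (38.1 and 27.2, log2 -0.48) and *Cdc6* (65.5 and 52.8, log2 -0.31) had the lowest ratios. *E2f1* (25.9 and 36.5, log2 0.50, 0.12 to 0.87), *Mcm5* (141 and 159, log2 0.17) and *Mcm3* (186 and 209, log2 0.17) had the highest. *Dut* was at 813 and 709 (log2 -0.20) and *Rrm2* at 230 and 210 (log2 -0.13). *Pclaf* (245 and 249), *Pcna* (373 and 373) and *Mcm6* (191 and 208) had intervals of the ratio that included 0. The gate held 373 and 168 barcodes. In it the erythroid markers summed to 7605 and 5514 CPM, the plasma markers to 1927 and 3192, the neutrophil markers to 349 and 1470 and the progenitor markers to 197 and 22.4. The part of these in the ratios was not tested.

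In the Lyz2 gate of run 1, 4 of 34 members (6.21% of all genes) were called lower and 0 (4.52% of all genes) higher. They were *Tyms* (48.0 and 30.4 CPM, log2 -0.66), the checkpoint mediator *Clspn* (37.1 and 23.9, log2 -0.63), *Dut* (201 and 133, log2 -0.59) and *Pclaf* (182 and 122, log2 -0.59). *Rrm2* (75.9 and 58.0, log2 -0.39), *Pcna* (153 and 134, log2 -0.19) and *Mcm6* (70.3 and 62.0, log2 -0.18) were lower with intervals that excluded 0. The highest ratios were *Ccne1* (21.9 and 22.4), *Cdt1* (30.1 and 30.4) and *Gins1* (9.11 and 8.49), all with intervals that included 0. The median was -0.32, beside -0.07 for all genes. Neutrophil markers summed to 12463 CPM in PEP-WT and 20871 in PEP-619WW in this gate, and 1 member (5.09% of all genes) was called lower when immunoglobulin, T cell receptor, hemoglobin, mitochondrial and ribosomal protein genes were left out of the total. The 3 lost calls, *Clspn*, *Dut* and *Pclaf*, lay near the limit at 1.55-fold, 1.503-fold and 1.50021-fold, and with the smaller total their log2 ratios were -0.58, -0.54 and -0.53.

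**Figure D3:**
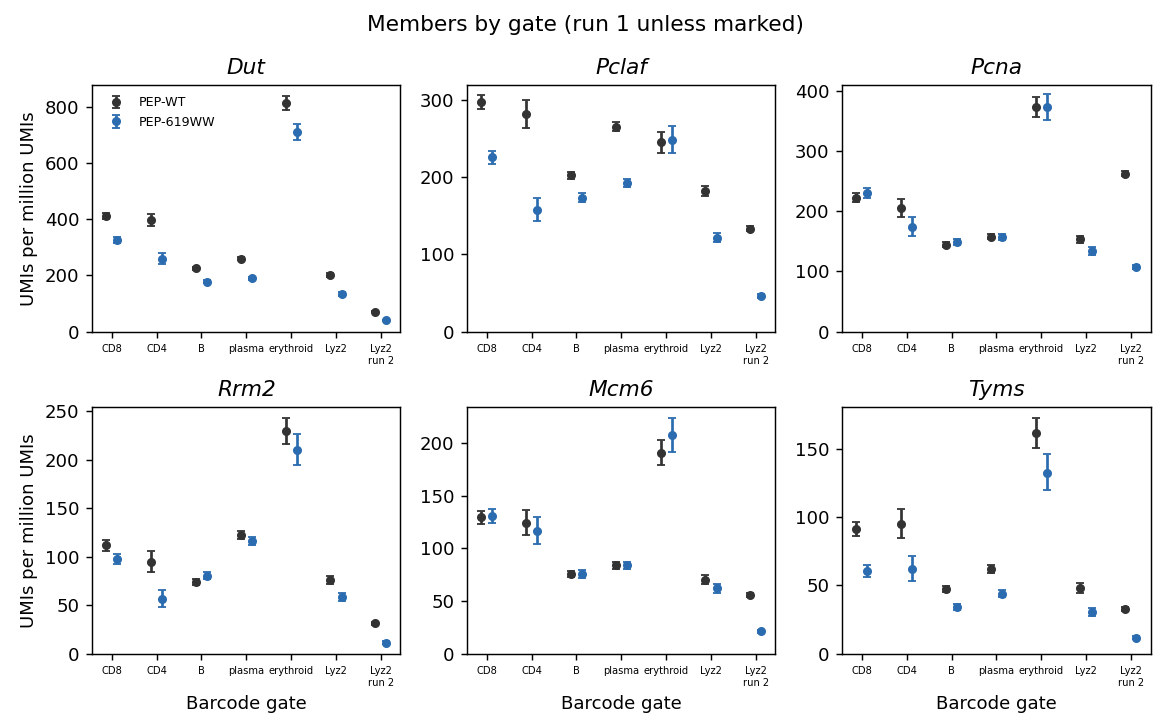
Levels of *Dut*, *Pclaf*, *Pcna*, *Rrm2*, *Mcm6* and *Tyms* in CPM (y axes, linear from 0) by barcode gate (x axes, run 1 unless marked), PEP-WT in black and PEP-619WW in blue with 95% Poisson intervals. *Tyms* is lower in PEP-619WW in each gate, with 91.5 against 60.6 in the CD8 T gate, whereas *Pcna* is level in the plasma gate at 157 and 157.

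The members were also summed by role. A sum gives its most abundant members the most weight. Of the 7 role sums in run 1, 5 had ratios below 0 in all 6 gates, and those of the MCM ring and of the E2F and cyclin E genes were above 0 in at least 1 gate. Some intervals of these 5 included 0. They were those of the initiation genes in the B (-0.15 to 0.02) and erythroid gates (-0.25 to 0.02). In the erythroid gate they were also those of the clamp group (-0.09 to 0.04) and of the histone and chromatin genes (-0.19 to 0.02). Nucleotide supply (*Dut*, *Rrm1*, *Rrm2*, *Tk1* and *Tyms*) had summed log2 ratios of -0.29 in the CD8 T, -0.55 in the CD4 T, -0.19 in the B, -0.28 in the plasma, -0.14 in the erythroid and -0.48 in the Lyz2 gate. Helicase loading and the MCM ring (*Cdc6*, *Cdt1* and *Mcm2* to *Mcm7*) were at -0.07, -0.23, -0.04, -0.12, 0.03 and -0.28 in the same order. The E2F and cyclin E genes (*E2f1*, *Ccne1* and *Ccne2*) were at 0.06, -0.33, 0.16, 0.11, 0.00 and -0.12. The clamp, flap, ligase and single-strand binding genes (*Pcna*, *Pclaf*, *Fen1*, *Lig1* and *Rpa2*) were at -0.14, -0.45, -0.07, -0.22, -0.03 and -0.35. Polymerases and primase (*Pola1*, *Prim1*, *Pold1* and *Pole*) were at -0.20, -0.53, -0.19, -0.34, -0.22 and -0.38, and the initiation genes (*Mcm10*, *Cdc45*, *Gins1*, *Gins2* and *Clspn*) at -0.21, -0.51, -0.06, -0.23, -0.12 and -0.44. The histone and chromatin genes (*Slbp*, *Chaf1a*, *Chaf1b* and *Uhrf1*) were at -0.09, -0.24, -0.07, -0.13, -0.08 and -0.36. In the CD8 T gate *Dut* had 410 of the 755 nucleotide supply CPM of PEP-WT. The log2 ratios there were -0.34 (*Dut*), -0.59 (*Tyms*), -0.20 (*Rrm2*), -0.09 (*Tk1*) and -0.05 (*Rrm1*). The intervals of *Tk1* and *Rrm1* included 0. In the B gate *Dut*, *Tyms* and *Tk1* were below 0 and *Rrm1* (0.06) and *Rrm2* (0.13) above it. In the CD8 T gate *Pclaf* (-0.40) and *Lig1* (-0.19) were below 0, and *Pcna* (0.05), *Fen1* (0.02) and *Rpa2* (0.07) above it.

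Over the 6 run 1 gates, which share libraries and part of their barcodes, the ratio of *Tyms* ranged from -0.66 to -0.28, that of *Dut* from -0.61 to -0.20 and that of *Pola1* from -0.57 to -0.21. *Slbp*, which binds the ends of histone transcripts, ranged from -0.31 to -0.05 and the salvage kinase *Tk1* from -0.38 to -0.09. *Cdt1* ranged from -0.12 to 0.35 and *Mcm6* from -0.18 to 0.12. The ranges of *Tyms* and *Mcm6*, set side by side with their values known, did not meet. Those of the ring members *Mcm4* (-0.53 to -0.004) and *Mcm7* (-0.51 to -0.01) stayed below 0 and overlapped that of *Tyms*. *Mcm3* (-0.38 to 0.17) overlapped it too, and *Mcm2* (-0.25 to 0.10) and *Mcm5* (-0.24 to 0.17) did not.

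**Figure D4:**
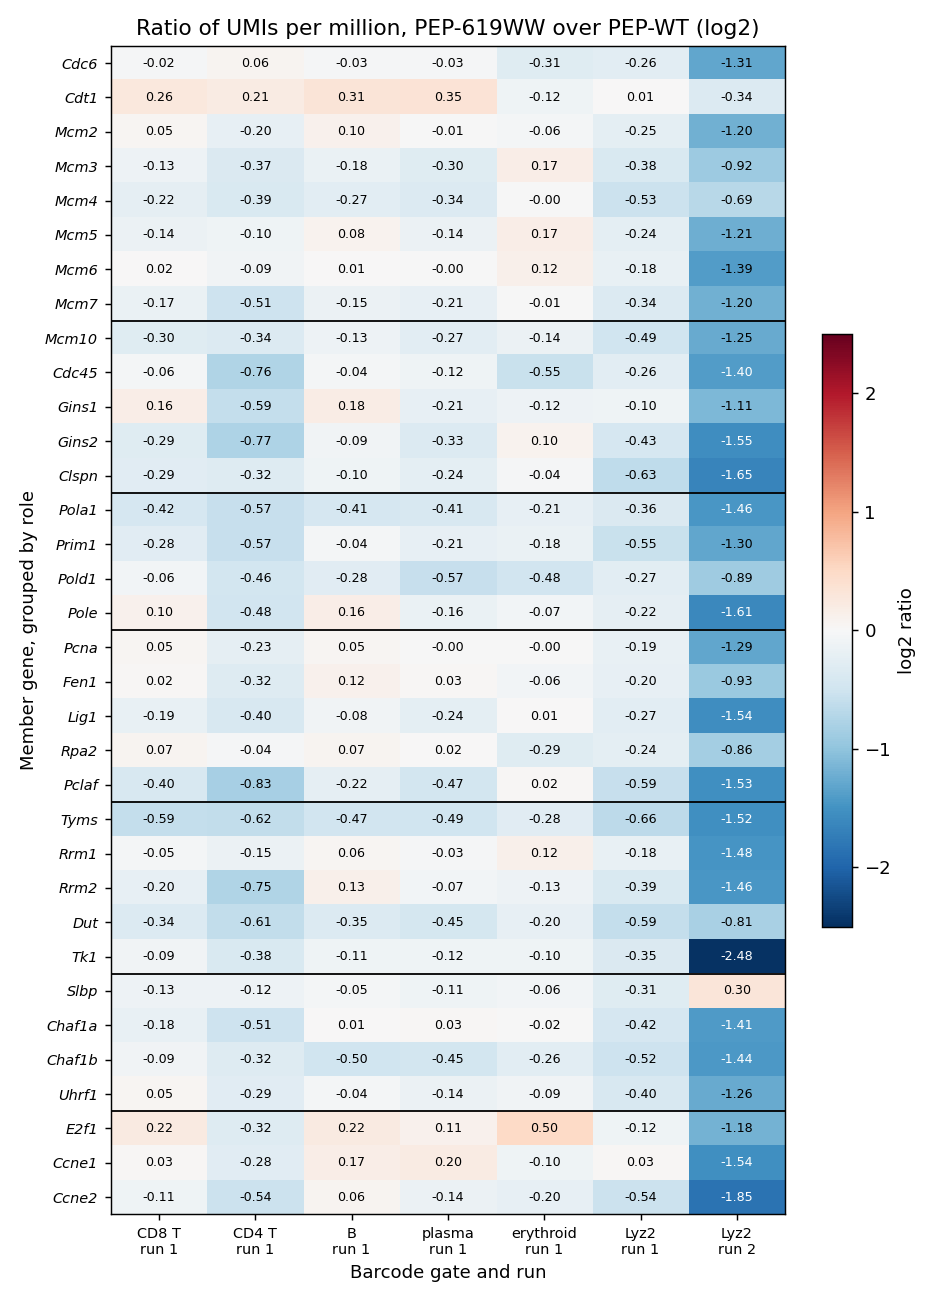
Log2 ratio of CPM, PEP-619WW over PEP-WT, of the 34 members (y axis, black lines between roles) in 7 barcode gates (x axis), printed in each cell and colored from blue (lower in PEP-619WW) to red (higher). The run 2 column is blue for each member but *Slbp* (0.30), and *Tyms* is blue in each column, from -0.28 in the erythroid gate of run 1 to -1.52 in the Lyz2 gate of run 2.

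The CD8 T, CD4 T, plasma, erythroid and Lyz2 gates were then divided into subsets, taken in turn so that a barcode fell in 1 of them at most. In the CD8 T gate of run 1, barcodes with a UMI of *Gzmb*, the granzyme B gene of effector cells, had 2978 member CPM in PEP-WT (2945 to 3011) and 2432 in PEP-619WW (2403 to 2461). Their thinned share differed by -6.80 points (-11.5 to -2.10). Barcodes without *Gzmb* but with *Lef1* or *Ccr7*, genes of resting T cells, had 1582 (1531 to 1634) and 1977 (1885 to 2072), a ratio in the other direction (log2 0.32), with 339 and 79 barcodes at median depths of 4528 and 7520 UMIs. Their thinned share differed by 5.21 points (-4.40 to 16.6), an interval that included 0. Barcodes with none of these genes had 1753 and 1008, with 148 and 48 barcodes and therefore no ratio. *Gzmb* had a UMI in 66.2% (PEP-WT) and 86.7% (PEP-619WW) of the gate's barcodes, at median depths of 6038 and 8660 UMIs, and in 55.7% (53.0% to 58.3%) and 73.4% (70.5% to 76.3%) after thinning to 2000 UMIs. In B barcodes of no other gate the thinned shares were 1.77% and 3.14%, at median depths of 2393 and 2969 UMIs, and in mature neutrophil barcodes 7.99% and 5.45%. In the *Gzmb* subset *Tyms* was at 102 and 62.1 CPM (log2 -0.72) and *Mcm6* at 140 and 134 (log2 -0.07).

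In the CD4 T gate, barcodes with *Lef1* or *Ccr7* and no *Foxp3* had 2317 and 1853 member CPM (log2 -0.32), and those with none of these genes 2343 and 1783 (log2 -0.39). Their thinned shares differed by -3.90 points (-13.3 to 5.70) and 3.56 points (-9.04 to 16.7), intervals that included 0. *Foxp3*, the gene that marks regulatory T cells, was found in 16 and 18 barcodes, too few for a ratio, with 3267 (3063 to 3482) and 1417 (1237 to 1616) member CPM. With so few barcodes, single ones can set these sums, which the intervals do not cover. The thinned shares were 60.0% (32.3% to 83.7%, over 15 barcodes) and 22.2% (6.41% to 47.6%, over 18), with intervals that overlapped.

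In the plasma gate, barcodes with more IgM than IgG transcripts had 1995 and 1785 member CPM (log2 -0.16) and those with more IgG had 1932 and 1676 (log2 -0.20). In the erythroid gate, barcodes with under 20% hemoglobin transcripts had 4673 and 4479 (log2 -0.06). Those with 20% or more had 4999.9 in PEP-WT over 46 barcodes and 5108 in PEP-619WW over 6. The thinned share was 92.0% and 87.8% in the subset under 20%, a difference of -4.21 points (-11.4 to 1.73). At 20% or more it was 63.9% over 36 barcodes and 66.7% over 6.

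In the Lyz2 gate of run 1, barcodes with at least 2 UMIs of the granule genes *Elane*, *Mpo* and *Prtn3* of myeloid progenitors had the highest level, 2499 in PEP-WT (2449 to 2550) and 1658 in PEP-619WW (1620 to 1698). The log2 ratio was -0.59 (-0.64 to -0.55), and the thinned share was 44.3% and 29.1%, a difference of -15.2 points (-23.7 to -6.41). Barcodes with *Retnlg* or *Ly6g*, genes of neutrophils, had 1248 and 1118 (log2 -0.16), and those with *Csf1r*, the receptor of monocytes and macrophages, had 1166 and 988 (log2 -0.24). The shares of these subsets differed by 0.78 points (-3.98 to 5.42) and 0.67 points (-4.45 to 6.46). The remaining 286 (PEP-WT) and 185 (PEP-619WW) barcodes had 1886 (1831 to 1942) and 1162 (1099 to 1228), the lowest ratio of the 4 subsets (log2 -0.70, -0.79 to -0.61), while their share differed by 1.75 points (-7.85 to 12.3). Their median depth was 4812.5 and 2418 UMIs.

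**Figure D5:**
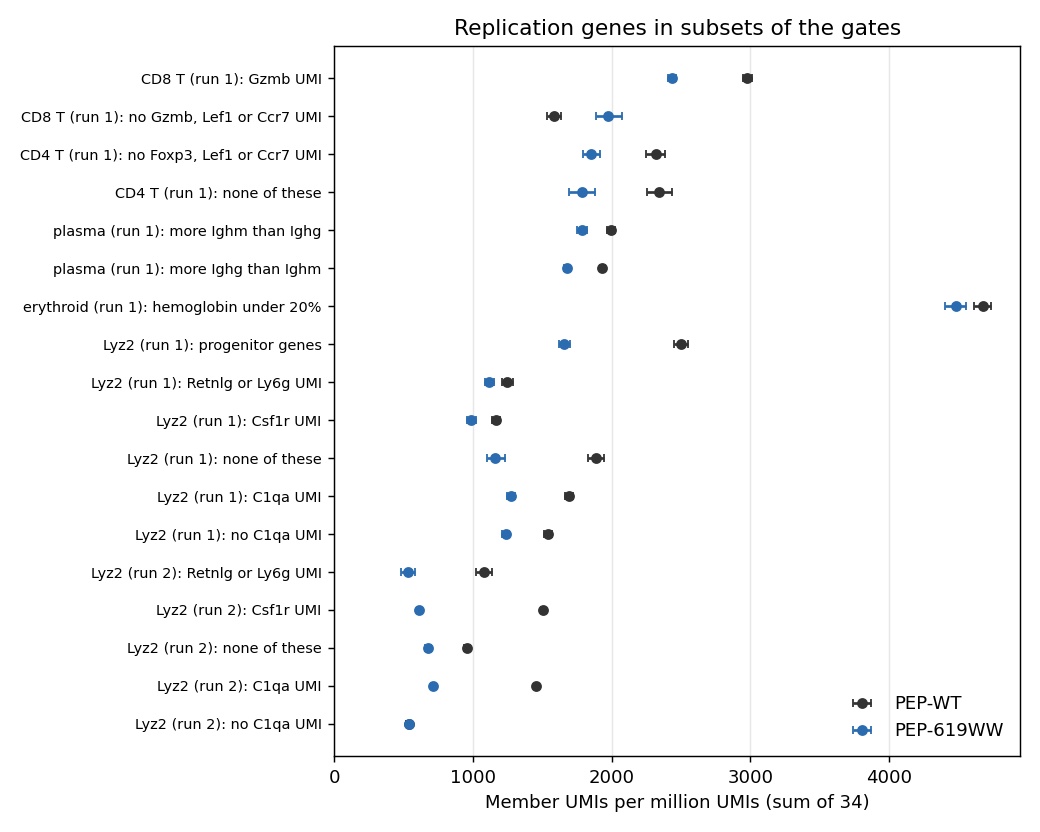
Summed CPM of the 34 members (x axis, linear from 0) in subsets of 5 of the gates (y axis) with 50 or more barcodes in both genotypes, PEP-WT in black and PEP-619WW in blue with 95% Poisson intervals. PEP-619WW lies to the right in the CD8 T subset without *Gzmb* (1977 against 1582), and the sums of both genotypes coincide in the Lyz2 subset of run 2 without *C1qa* (541 and 537), where single members differed in both directions.

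The Lyz2 gate of run 2 had 6488 (PEP-WT) and 4919 (PEP-619WW) barcodes and showed the widest difference. The members summed to 1394 CPM in PEP-WT (1385 to 1404) and 617 in PEP-619WW (609 to 626), a log2 ratio of -1.18 (-1.20 to -1.15). The thinned share was 27.0% and 6.74%, a difference of -20.2 points (-21.6 to -18.9). Mature neutrophil barcodes of the same run had 765 and 493 CPM, and the summed level of the PEP-619WW gate lay above that of the neutrophils of its own library and below that of the PEP-WT neutrophils. On the thinned share, the PEP-619WW gate (6.74%, 6.01% to 7.52%) could not be told from the neutrophils of its library (5.26%, 1.73% to 11.9%, over 95 barcodes), whose PEP-WT share was 13.0% (5.37% to 24.9%, over 54 barcodes). Of the 34 members, 32 were called lower (16.0% of all genes) and 0 higher (24.4% of all genes), and the median was -1.30, beside 0.12 for all genes.

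*Tk1* had the lowest ratio there, with 50.1 CPM in PEP-WT (48.3 to 51.9) and 8.99 in PEP-619WW (8.01 to 10.1), log2 -2.48. The cyclin E gene *Ccne2* (12.3 and 3.41, log2 -1.85) and *Clspn* (26.0 and 8.32, log2 -1.65) followed. *Slbp* was the member with a higher level in PEP-619WW (47.7 and 58.6, log2 0.30, 0.21 to 0.38), and *Cdt1* (26.9 and 21.3, log2 -0.34) and *Mcm4* (36.4 and 22.6, log2 -0.69) came next. *Pcna* was at 262 and 107 (log2 -1.29), *Pclaf* at 133 and 46.2 (log2 -1.53), *Dut* at 70.9 and 40.4 (log2 -0.81), *Mcm6* at 55.3 and 21.04 (log2 -1.39) and *Rrm2* at 31.3 and 11.4 (log2 -1.46).

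In the subsets of this gate, barcodes with *Csf1r* had 1504 and 614 member CPM (log2 -1.29), those with *Retnlg* or *Ly6g* 1079 and 529 (log2 -1.03) and those with none of the subset genes 957 and 675 (log2 -0.50). The progenitor subset, with 64 and 46 barcodes, had 475 and 259 and was given no ratio because of its size. The gate was also split by *C1qa*, a complement gene of macrophages, a split added after the data were seen. *C1qa* had a UMI in 87.4% (PEP-WT) and 37.2% (PEP-619WW) of the gate's barcodes, at median depths of 7523 and 5919 UMIs, and in 80.9% and 31.5% after thinning to 2000 UMIs. Mature neutrophil barcodes, at median depths of 1760 and 2022 UMIs, had thinned shares of 42.6% and 13.7%, and CD8 T barcodes of no other gate had 11.8% (2 of 17) and 1.68% (4 of 238). The *C1qa* UMIs of barcodes of other classes thus differed between the libraries in the same direction, and the split does not tell free RNA from macrophages. In barcodes with *C1qa* the members had 1457 and 714 CPM (log2 -1.03, -1.06 to -0.999), and in barcodes without it 537 and 541 (log2 0.01, -0.06 to 0.08). In barcodes without *C1qa*, *Pcna* was lower in PEP-619WW (144 and 93.9, log2 -0.62, -0.75 to -0.48), whereas *Dut* (28.0 and 37.0, log2 0.40, 0.12 to 0.69), *Pclaf* (30.2 and 39.1, log2 0.37, 0.10 to 0.66) and *Rrm2* (6.17 and 9.57, log2 0.63, 0.03 to 1.28) were higher. In run 1 the same split gave -0.41 with and -0.32 without *C1qa*. T cell markers summed to 16.7 and 261 CPM in the gate, melanocyte markers to 146 and 17.7, neutrophil markers to 213 and 625 and erythroid markers to 54.6 and 0.88, with *Car1* and *Rhag* at 0 in both genotypes. The part of these in the difference was not tested. For the other gates of run 2 no ratio was made, because PEP-WT had fewer than 50 barcodes in each. The CD8 T gate had 2793 CPM in PEP-WT (2600 to 2997) over 28 barcodes and 2341 in PEP-619WW over 394. The CD4 T gate had 1929 (1722 to 2154) over 12 barcodes and 2088 over 438, and the B gate 553 (276 to 990) over 2 barcodes and 738 over 503.

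Other genes of the cycle were read beside the members. Each count of a list is to be read against the share of all genes called in that gate, given again here for the lower direction. In the higher direction the run 1 shares were 5.07% (CD8 T), 7.80% (CD4 T), 6.60% (B), 5.59% (plasma), 6.14% (erythroid) and 4.52% (Lyz2). Of 69 other replication genes, 0 higher and 1 lower were called in the CD8 T gate (5.90% of all genes lower), 0 and 9 of 66 tested in the CD4 T gate (7.58%), 0 and 0 in the B gate (4.78%), 0 and 2 in the plasma gate (5.15%), 1 and 3 in the erythroid gate (6.81%) and 0 and 7 in the Lyz2 gate of run 1 (6.21%). In the Lyz2 gate of run 2, 2 were higher (24.4% of all genes) and 38 lower (16.0%). Their medians were -0.11, -0.32, -0.05, -0.15, -0.04 and -0.32 in run 1 and -0.70 in run 2. *Dek*, a chromatin protein gene, was at 243 and 180 CPM in the CD4 T gate (log2 -0.43), the Cdk adaptor *Cks1b* at 199 and 125 (log2 -0.67) and the polymerase delta subunit *Pold4* at 118 and 93.5 (log2 -0.34). *Pold4* had its lowest ratio in the plasma gate (153 and 85.03, log2 -0.85).

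Of the 24 mitosis genes, of which *Ccna2* is also among the other replication genes, 9 were called lower in the CD4 T gate (7.58% of all genes). In the Lyz2 gate of run 2, 24 were called lower (16.0% of all genes) and in the other 5 gates 0 (4.78% to 6.81% of all genes). The number called higher was 0 in each gate (4.52% to 24.4% of all genes). Their median was -0.20 in the CD8 T gate, -0.45 in the CD4 T gate and 0.01 in the B gate. It was -0.18 in the plasma gate, -0.12 in the erythroid gate, -0.20 in the Lyz2 gate of run 1 and -1.73 in that of run 2. Their summed log2 ratio in the CD8 T gate was -0.22 (-0.25 to -0.20). The proliferation marker *Mki67* was at 241 and 208 CPM in the CD4 T gate (log2 -0.21), 266 and 278 in the CD8 T gate (log2 0.06), and 178 and 219 in the B gate (log2 0.30). *Top2a*, a topoisomerase gene, was at 288 and 207 in the CD4 T gate (log2 -0.48), and *Ube2c*, which acts at the exit from mitosis, at 236 and 138 (log2 -0.77). In the CD8 T gate *Top2a* was at 276 and 241 (log2 -0.20, -0.26 to -0.13) and *Ube2c* at 252 and 191 (log2 -0.40, -0.47 to -0.32). In the B gate the ratios of *Top2a* and *Ube2c* were -0.01 and -0.09. In the Lyz2 gate of run 2 these 3 genes had ratios of -1.50, -1.59 and -1.98.

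A list of 67 histone genes was taken by symbols that start with Hist1h, Hist2h, Hist3h or Hist4h, as replication-dependent histone genes. Whether each gene is replication-dependent was not checked. Most transcripts of that class lack the poly(A) tail that the assay captures. Of the 67 genes, 53 could be tested in the CD8 T gate, with 4 higher (5.07% of all genes) and 1 lower (5.90%). In the CD4 T gate 2 were higher (7.80%) and 9 lower (7.58%) of 38, and in the B gate 9 (6.60%) and 1 (4.78%) of 58. In the plasma gate 2 were higher (5.59%) and 0 lower (5.15%) of 59, in the erythroid gate 1 (6.14%) and 4 (6.81%) of 46 and in the Lyz2 gate of run 1 1 (4.52%) and 3 (6.21%) of 50. In the Lyz2 gate of run 2, 1 was higher (24.4%) and 42 lower (16.0%) of 57. *Hist1h1b*, a linker histone gene, was at 347 and 207 CPM in the CD4 T gate (log2 -0.74) and 321 and 78.0 in the Lyz2 gate of run 2 (log2 -2.04). The linker histone genes *Hist1h1e* and *Hist1h1c* were at 216 and 186 and at 91.6 and 88.5 in the CD4 T gate.

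Of 16 genes that restrain S phase, 9 were called higher (24.4% of all genes) and 2 lower (16.0% of all genes) in the Lyz2 gate of run 2, where *Samhd1*, which degrades dNTPs, was at 151 and 448 CPM (log2 1.57), the antiproliferative gene *Btg1* at 312 and 747 (log2 1.26) and the quiescence factor *Klf2* at 83.7 and 192 (log2 1.20). In run 1, 0 of 14 were called in the B gate (4.78% of all genes lower and 6.60% higher), the plasma gate (5.15% and 5.59%) and the Lyz2 gate (6.21% and 4.52%). In the CD8 T gate (5.90% of all genes lower) and in the erythroid gate (6.81%) 1 was lower, and in the CD4 T gate 1 was higher (7.80%) and 1 lower (7.58%).

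Barcodes with 3 or more members also differed from the other barcodes of their gate in these lists. In the PEP-WT B gate, mitosis genes were at 3284 CPM in barcodes with 3 or more members and 500 in the others, a ratio of 6.57, histone genes at a ratio of 4.42 and the restraining genes at 0.50. In the PEP-WT erythroid gate the ratios were 1.70, 3.11 and 0.53. Of the barcodes with 3 or more members at 2000 UMIs, 84.8% in the PEP-WT and 80.7% in the PEP-619WW erythroid gate also had 3 or more mitosis genes, against 55.6% and 47.9% in the CD8 T gate and 45.0% and 32.5% in the Lyz2 gate of run 2. These contrasts used the members to split the same barcodes and are given as a description.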

How the data were processed

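By the study's description, live CD45+ splenocytes of infected mice were profiled with the 10x Genomics 3' assay. The authors made UMI counts per gene and barcode with Cell Ranger on an mm10 (GRCm38) reference; the labels' processing notes name version 6.0.0 and the study's methods another version. The deposited files hold these raw counts, unnormalized, in 1 file per library and run, with no cell type annotation. Of 32285 gene identifiers, 32158 matched a symbol. The barcode numbers of run 2 are the cell numbers that the study's methods give.

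UMIs were summed per gate and divided by all UMIs of the gate (CPM, per 1000000). Intervals at 95% were exact Poisson (levels), exact conditional binomial (ratios), Clopper-Pearson (shares) and Newcombe (differences of shares). Barcodes were thinned to 2000 UMIs without replacement (seed 1). Barcodes were used as deposited, and doublets were neither called nor removed. Median depth was 2832 to 4837 UMIs per barcode. A ratio required 50 barcodes in both genotypes. With 1 library per genotype no test was made. PEP-WT and PEP-619WW followed the sample labels.

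The members, lists, gates and alternatives were chosen with earlier results of these data known. All members were reported by role; named with values were the 3 highest and 3 lowest ratios per gate, the 5 members with the most UMIs over the gates of run 1, and the 3 genes with the most UMIs of each other list, and others named were chosen after their values were seen. Promoter windows came from RefSeq (GRCm38.p6). The ratio of sums was run on simulated counts drawn as independent Poisson values per gene. That simulation held no barcodes, doublets or free RNA, so it does not show how the intervals hold with them. Scripts ran under numpy 2.4.6, scipy 1.17.1, matplotlib 3.10.9 and python 3.11.15. The split by *C1qa* was added after the data were seen. A division of the B gate into subsets is not reported here.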

Additional observations from a re-analysis of the deposited data

Results flagged for a closer look

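Barcodes that passed none of the 6 gates, outside the comparisons above, held member UMIs above the mature neutrophil barcodes of the same library: 1594 CPM in PEP-WT (neutrophils 1301) and 1448 in PEP-619WW (705) in run 1, and 961 (765) and 741 (493) in run 2. They made up 4147, 2505, 3021 and 5056 barcodes of these libraries, with median depths of 1854, 1281, 1446 and 2097 UMIs. The difference in the thinned share of barcodes with 3 or more members had opposite signs in the B gate of run 1 (2.15 points) and the Lyz2 gate of run 2 (-20.2 points), with intervals that excluded 0 in both. With 5 or more members the B gate had -0.77 points (-1.98 to 0.50). These gates hold unlike cell classes from runs that were kept apart, and the difference between them was not tested.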

How the results depend on the processing

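Of 48 sum ratios under another setting, 15 moved by less than their counting interval, 29 moved further and 4 reversed, a word used only where the first interval excluded 0. Of 56 share differences the numbers were 38, 17 and 1. Another 10 of these had the other sign than the first value, whose interval included 0: -2.39 (5 or more members) and -2.85 (stricter gates) in the CD8 T gate, 13.4 (no thinning) in the CD4 T gate, -1.21 (1000 UMIs), -2.14 (5 or more members) and -3.19 (stricter gates) in the plasma gate, 4.92 (no thinning), 3.29 (1000 UMIs) and 4.98 (without barcodes of 2 or more gates) in the erythroid gate and 2.63 (no thinning) in the Lyz2 gate of run 1. Of 84 counts of members, 69 stayed within 1.5 times and 15 did not, and of 946 single-member ratios 811 stayed, 135 moved and 0 reversed. The cause of these changes was not tested. Gates are given in the order CD8 T, CD4 T, B, plasma, erythroid, Lyz2 (run 1) and Lyz2 (run 2).

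As a mean over barcodes, the log2 sum ratio was -0.039, -0.24, 0.13 (reversed), -0.062, -0.0026, -0.13 and -1.32. Without barcodes of 2 or more gates it was -0.026, -0.58, 0.026 (reversed), -0.0074, 0.11 (reversed), -0.30 and -1.43. Stricter gates gave -0.25 (CD8 T), -0.59 (CD4 T), -0.24 (plasma), -0.41 (Lyz2, run 1) and -1.22 (Lyz2, run 2). Leaving immunoglobulin, T cell receptor, hemoglobin, mitochondrial and ribosomal protein genes out of the total gave -0.13 (CD8 T), -0.058 (B), -0.15 (plasma) and -0.31 (Lyz2, run 1). Without *Dut* it was -0.13 (CD8 T), -0.055 (B) and -0.33 (Lyz2, run 1), without *Pclaf* -0.16 (plasma) and without *Pcna* -1.15 (Lyz2, run 2). With fewer than 10 UMIs of *Mt2* the CD4 T gate had -0.48. Barcodes with *C1qa* gave -0.41 (run 1) and -1.03 (run 2), and those without it -0.32 and 0.010 (reversed), a split chosen after seeing the data.

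Without thinning, the difference in share was 13.1, 13.4, 12.2, 7.16, 4.92, 2.63 and -28.7 points. In the Lyz2 gate of run 2 it was -10.5 at 1000 UMIs and -27.8 at 4000 UMIs, and in that of run 1 -6.04 at 4000 UMIs. With 2 or more members it was 4.10 (B) and -26.6 (Lyz2, run 2), and with 5 or more -0.77 (B, reversed), -2.14 (plasma) and -10.9 (Lyz2, run 2). Without barcodes of 2 or more gates it was 5.07 (plasma) and 4.98 (erythroid), and with stricter gates -3.19 (plasma).

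Beside each count of members below stands the share of all genes called in the same direction under the same setting. Without barcodes of 2 or more gates, members called lower numbered 0 (CD8 T, 4.03%), 17 of 31 (CD4 T, 9.51%), 2 (B, 4.36%), 1 (plasma, 3.24%) and 1 (erythroid, 7.45%), with 1 higher in the erythroid gate (6.49%). With stricter gates they were 16 of 31 (CD4 T, 9.09%, with 1 higher, 9.54%), 1 (plasma, 4.67%) and 1 (erythroid, 7.05%). With the reduced total they were 0 (CD8 T, 5.38%) and 1 (Lyz2, run 1, 5.09%), and at 2-fold 0 in the CD8 T (2.21%), CD4 T (1.87%) and Lyz2 (run 1, 1.80%) gates.

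No paired analysis was possible because each genotype had 1 pooled library in a run and no result came from a test. For the same reason no replicate was left out. The spread between mice is unknown, the intervals cover counting error only, and the gates hold barcodes of more than 1 class.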
